A study of Eriocheir sinensis with 6 samples.

Results

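The regions described here are stretches of open chromatin that were found in all 3 crabs on the unplaced sequences of the Chinese mitten crab (Eriocheir sinensis) genome. Peaks of the 3 deposited lists that shared at least 1 base were joined into merged regions, and such a region was kept when it lay on a sequence whose name starts with JACDRO and held a peak of every library. This gave 9068 shared regions of 85139 merged regions in the series, beside 18305 shared regions on the 72 placed sequences. The samples were walking-leg muscle of 3 wild-type, untreated juvenile crabs sampled between molts, when the shell is hard and no new one is yet being prepared. Each crab gave 1 ATAC-seq library and 1 RNA-seq library, and the series has no other stage or treatment. The crabs were separate animals, and since the peaks of ATAC library 3 are not named with a 3 in their list, its place as crab 3 rests on the sample record. The deposited tables pair no gene identifier with a name, so the labelled tissue was not checked against muscle markers here, and no base sequence is shown because no genome of this assembly was used.

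In ATAC-seq the Tn5 transposase cuts DNA that is not covered by nucleosomes or other proteins, and places with many cuts are called as peaks. An unplaced sequence is a piece of an assembly that could not be assigned to a chromosome. Such pieces are often short and are known to be rich in repeats, in near-identical copies and in stretches that differ between the chromosome copies of an animal, all of which make reads harder to assign to 1 place. The fold enrichment of a peak is the fragment pileup at its summit over the local background, so it can change through either of them.

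Open regions on the unplaced sequences were more often common to the 3 crabs than those on the placed sequences. Of 19408 merged regions on unplaced sequences, 9068 (46.7%) were found in every library, whereas 4072 (21.0%) were found in 2 and 6268 (32.3%) in 1 only. On the placed sequences 18305 of 65731 (27.8%) were shared by all 3, and over all sequences the share was 32.2%. Peaks that need only 1 base in common meet more often where peaks are denser, as they were on the unplaced sequences (given below). The part of this in these shares was not tested. The shared regions took up 60.8%, 66.0% and 75.2% of the peaks called on unplaced sequences in crabs 1, 2 and 3, against 46.7%, 58.3% and 43.7% of those on placed sequences, so the unplaced share was higher in each crab. The shared regions on unplaced sequences had a median fold enrichment of 4.43 and a median width of 684 bases. Those that missed 1 library had 3.38 and 397 bases. Placed sequences showed nearly the same contrast, with 4.44 and 657 bases in all 3 libraries and 3.39 and 395 bases in 2. A merged region spans all its peaks, so its width is not independent of the number of libraries.

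The shared regions were dense on the unplaced sequences. With the length of a sequence taken as its highest position in the files, which can only be too short, the unplaced sequences summed to 102 Mb and the placed ones to 1131 Mb. The unplaced sequences thus made up 8.30% of this length and held 33.1% of all shared regions. The density was 0.886 shared regions per 10 kb on unplaced sequences against 0.162 on placed sequences, 5.47 times as many. Counted from each crab's own peaks, the density was 1.53, 1.48 and 1.28 peaks per 10 kb on unplaced sequences against 0.368, 0.304 and 0.388 on placed ones. The ratio was thus 4.16, 4.87 and 3.29 in crabs 1, 2 and 3, lowest in crab 3. An unplaced sequence is named in the files only where it has a peak or a gene model, so that sequences with neither are missing from this length. Shared regions covered 7.15% of the unplaced length and 1.20% of the placed length. Among the placed sequences the density ran between 0.0897 and 0.359 per 10 kb, and 458 of the 461 unplaced sequences with at least 6 shared regions were above the densest of them, a group that its own count of regions had selected.

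Most unplaced sequences carried few shared regions. Of the 2875 unplaced sequences in the files, 2188 had at least 1 shared region and 687 had none. The median was 2 per sequence with a region, and 744 sequences (34.0%) had exactly 1. The 461 sequences with at least 6 held 5340 regions, or 58.9% of the total. The 10 fullest sequences held 824 regions (9.09%), so that most regions lay on other sequences.

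**Figure D1:**
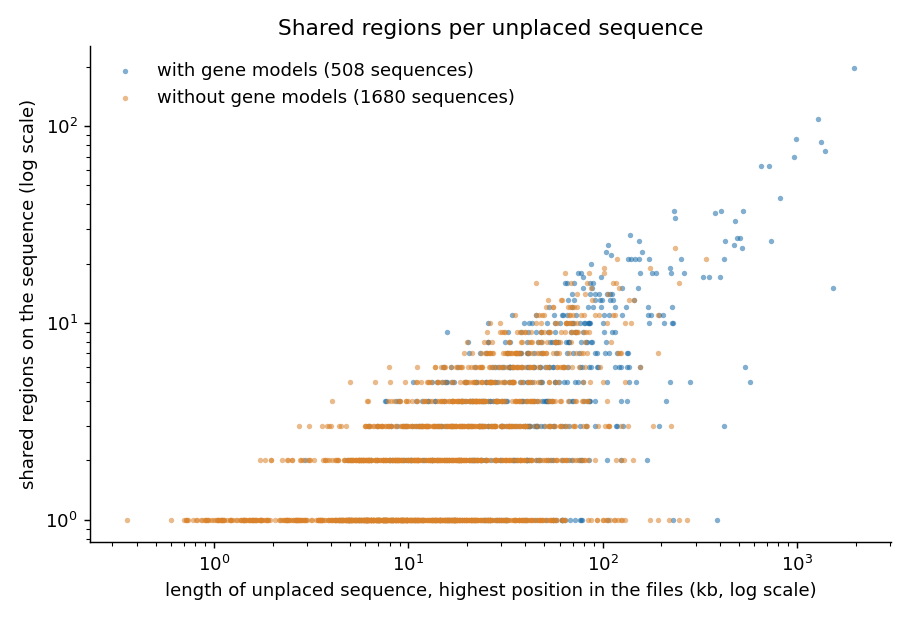
Number of shared regions (vertical, log scale) against the length of each unplaced sequence in kb (horizontal, log scale), with 1 point for each of the 2188 sequences with a shared region, in blue with gene models and in orange without. Longer sequences held more regions, up to 196 on the longest, and a sequence with gene models was usually among the longer ones.

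The fullest sequence was JACDRO010003270.1, which was 1962 kb long, had 53 gene models and held 196 shared regions. JACDRO010003269.1 came next with 108 regions on 1283 kb and 12 gene models. JACDRO010003284.1 held 86, JACDRO010003292.1 held 83, JACDRO010003290.1 held 75 and JACDRO010003252.1 held 70. JACDRO010003265.1 and JACDRO010003275.1 held 63 each, JACDRO010003258.1 held 43 and JACDRO010001581.1 held 37, a count that other sequences also reached. All 10 had gene models, between 4 and 53 of them. Their densities lay between 0.528 per 10 kb on JACDRO010003258.1 and 1.59 per 10 kb on JACDRO010001581.1, below the median of 1.54 of all sequences with at least 6 regions for each but the last. By its mean over the crabs, the median fold enrichment of their regions was highest on JACDRO010003270.1, with 5.06, 4.74 and 4.68 in crabs 1, 2 and 3. It was lowest on JACDRO010003290.1, with 3.34, 3.69 and 3.52. Both sequences were picked by these values, which give the range over the 10 and no test. The densest sequence with at least 6 regions was JACDRO010000855.1, where 6 regions stood on 7901 bases (7.59 per 10 kb), with no gene model. JACDRO010000204.1 had 9 regions on 15722 bases and 2 gene models, and JACDRO010000759.1 had 6 on 11070 bases and none.

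Density and fold enrichment were both higher on shorter sequences. Sequences under 5 kb had 2.47 shared regions per 10 kb (304 regions), those of 20 to 50 kb had 1.03 (2542 regions) and those over 100 kb had 0.606 (2471 regions). A length read from the outermost peak or gene is closest to that peak in a short sequence, which raises this density. The median fold enrichment was 5.97 ± 0.407 (SD, n = 3 crabs) under 5 kb, 5.04 ± 0.318 between 5 and 10 kb, 4.64 ± 0.253 between 10 and 20 kb and 4.18 ± 0.0788 over 100 kb. It fell along the length classes up to 100 kb in each crab. The local background, recovered from fold enrichment and p at every summit, had a median of 3.62 ± 0.274 fragments under 5 kb, 6.08, 4.76 and 4.16 fragments in crabs 1, 2 and 3 from 5 to 10 kb, 7.07 ± 0.902 from 10 to 20 kb and 7.96 ± 1.06 from 20 to 50 kb. It did not go on rising, with 7.63 ± 1.14 from 50 to 100 kb and 7.13 ± 1.19 over 100 kb. The lowest background that a library allows was reached by 56.7% ± 3.33 of the regions on sequences under 5 kb and by 20.8% ± 3.67 of those over 100 kb. A short sequence leaves little room around a summit from which a local background could be taken, and its part in these values was not tested. The width changed little, with medians of 715 bases under 5 kb and 666 bases over 100 kb. Of all shared regions, 169 (1.86%) started within 100 bases of the start of their sequence and 70 at its first base, against 2 of the 18305 placed ones within 100 bases. On sequences under 5 kb this was 14.1% of the regions.

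The strength of the shared regions relative to the placed ones depended on the crab. The median fold enrichment was 4.46 on unplaced sequences against 4.19 on placed sequences in crab 1, and 4.49 against 3.99 in crab 2. In crab 3 it was 4.23 on unplaced sequences against 4.997 on placed sequences, so the order was turned round. The difference of the medians on the log2 scale, unplaced minus placed, was 0.09, 0.17 and -0.24 in crabs 1, 2 and 3, with a mean of 0.0067 ± 0.22 (SD, n = 3 crabs, exact two-sided sign-flip test, p = 1). This mean lay well within the spread between crabs, and 3 crabs cannot give a p below 0.25. The placed medians varied more than the unplaced ones. The unplaced medians spanned 4.23 to 4.49 over the crabs and the placed ones 3.99 to 4.997. Crab 3 had the highest fold enrichment of the 3 crabs in 27.6% of the unplaced shared regions and in 62.7% of the placed ones.

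**Figure D2:**
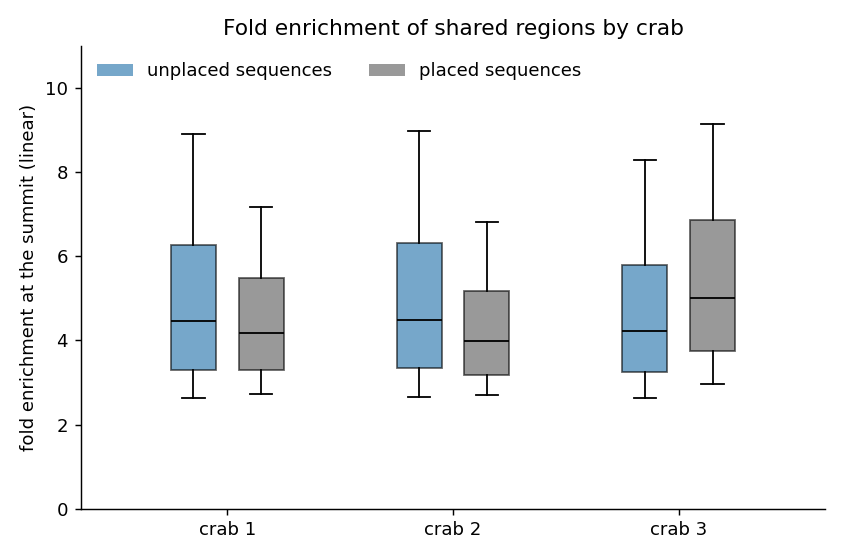
Fold enrichment at the summit (vertical, linear) of shared regions in crabs 1, 2 and 3, on unplaced sequences in blue and on placed sequences in grey. The line is the median, the box holds the middle part between the 25th and the 75th percentile and the whiskers reach the 10th and the 90th. The unplaced medians were above the placed ones in crabs 1 and 2 and below in crab 3, where the placed median was 4.997.

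Pileup and background showed the same order by crab. The median pileup at the summit was 44, 38 and 34 fragments on unplaced sequences and 36, 28 and 42 on placed sequences. The median local background was 8.20, 6.80 and 6.22 fragments on unplaced sequences and 7.20, 5.80 and 7.12 on placed ones. In crab 3 unplaced sequences also carried the smallest share of all peaks, 22.9%, against 27.3% in crab 1 and 30.6% in crab 2. Whether this came from the animal or from its library cannot be told apart with 1 library per crab. The tails differed from the medians. Of the unplaced shared regions, 572 (6.31%) had a mean fold enrichment of at least 10, against 515 (2.81%) of the placed ones. The 90th percentile of the fold enrichment was 8.91, 8.99 and 8.30 on unplaced sequences in crabs 1, 2 and 3 against 7.17, 6.81 and 9.14 on placed sequences, again with crab 3 in the other order.

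The median merged width was slightly larger on the unplaced sequences. The merged width had a median of 684 bases on unplaced sequences (quartiles 461 and 1013) and 657 bases on placed sequences (452 and 929). The widest reached 3846 bases on an unplaced sequence and 4285 on a placed one. The peaks of single libraries had a median width of 570, 498 and 493 bases within unplaced shared regions and 485, 401 and 526 bases within placed ones. The difference, unplaced minus placed, was 85.0, 97.0 and -33.0 bases, with a mean of 49.7 ± 71.8 (SD, n = 3 crabs, exact two-sided sign-flip test, p = 0.5), so it was not larger than the spread between crabs. The 27-base difference of the merged medians became 59 bases without crab 2 and 59 bases without crab 3.

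The crabs ranked the unplaced regions alike. Over the 9068 regions the Spearman correlation of fold enrichment was 0.82 for the pair of crabs 1 and 2, and 0.80 for each of the pairs with crab 3, against 0.70, 0.69 and 0.64 over the placed regions. These are correlations across regions of the same 3 libraries, which share their depth and are not independent, and they are given without a test. A wider spread of values can raise such a correlation, and its part was not tested. The quartiles of fold enrichment were 3.30 and 6.27 on unplaced against 3.29 and 5.47 on placed sequences in crab 1. They were 3.34 and 6.31 against 3.19 and 5.18 in crab 2, and 3.25 and 5.79 against 3.75 and 6.87 in crab 3. The SD over the crabs of log2 fold enrichment had a median of 0.20 on unplaced sequences and 0.29 on placed sequences. The gap was smaller once the level of crab 3 was set aside. After each library was divided by the median of all its shared regions the values were 0.24 on unplaced sequences and 0.25 on placed sequences, and without crab 3 the difference of -0.08 became -0.01. The 3 libraries stayed within 0.5 of each other on the log2 scale in 65.5% of the unplaced regions and in 44.3% of the placed ones. They were at least 1 apart in 418 unplaced regions (4.61%) and in 1986 placed ones (10.8%). The highest summits of the 3 crabs lay within 50 bases of each other in 40.9% of the unplaced regions and in 47.1% of the placed ones, so positions agreed no better on the unplaced sequences.

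The strongest shared region was JACDRO010000466.1:30741-31097, which is 357 bases wide and lies 14894 bases from the nearest gene model, added locus 6851 (a locus that the authors added to the annotation). Its fold enrichment was 44.5, 44.6 and 44.9 in crabs 1, 2 and 3, and its summit had 646, 589 and 683 fragments over a background of 13.5, 12.2 and 14.2. The values of the crabs differed by 0.01 at most on the log2 scale. JACDRO010000808.1:5222-5720 had a fold enrichment of 38.5, 37.5 and 40.2, and JACDRO010000923.1:4655-4984 had 36.1, 35.4 and 33.4. JACDRO010000135.1 held the next pair, 4283-4638 with 35.3, 35.5 and 33.7 and 18383-18773 with 30.7, 34.0 and 32.1. No gene model lies on these 3 sequences. All 5 regions were between 330 and 499 bases wide, below the median of 684, and all lay outside promoters and gene models. The regions on JACDRO010000466.1 and JACDRO010000923.1 end at the highest position known of their sequence. Whether this cut their width or changed their background was not tested.

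Among the regions with a mean fold enrichment of at least 10, a few differed widely between crabs. JACDRO010002579.1:5264-5956 had 15.0 and 19.3 in crabs 1 and 2 and 3.57 in crab 3, with 73, 85 and 15 fragments at the summit. It was the only shared region of its sequence. JACDRO010000232.1:17454-17834, which overlaps the promoter of added locus 6758, had 22.1 in crab 2 against 4.25 in crab 1 and 4.90 in crab 3. JACDRO010001834.1:7632-8591 was low in crab 1, with 3.62, against 18.0 in crab 2 and 12.9 in crab 3. Crab 1 was also the low one at JACDRO010000316.1:274-661, where the values were 8.10, 37.0 and 30.3, and at JACDRO010000324.1:10653-11625, where they were 7.29, 33.0 and 24.8. At these last 2 regions the summit pileup was 39 and 35 fragments in crab 1 against 170 and 352 in crab 2. In all, 42 of the 572 strong unplaced regions ranged over at least 1 on the log2 scale. Among the 515 strong placed regions 91 did, a larger share. The lowest crab was crab 1 in 18 of the 42 unplaced ones, crab 2 in 8 and crab 3 in 16. A region where 1 crab alone was high also counts here, as on JACDRO010000232.1. These counts therefore do not tell which library stood apart.

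The local background had a longer upper tail on the unplaced sequences. Its 90th percentile was 28.6, 22.7 and 21.2 fragments on unplaced sequences and 17.8, 13.1 and 20.9 on placed ones. In 60 unplaced shared regions on 20 sequences it was at least 10 times the placed median in every crab, against 7 placed regions on 3 sequences. A background far above the rest means that many fragments were assigned to the whole surroundings, not to the summit alone. At 7 regions it was at least 100 times the placed median in every crab, and all 7 lay on JACDRO010004310.1, a sequence of 41.7 kb that was picked out after its values were seen. They stood between 26845 and 41684 on that sequence, with a background of 1380 to 5052 fragments and a fold enrichment of 1.27 to 2.51. The other 3 regions of the same sequence had a background of 3.44 to 26.0 fragments and a fold enrichment of 2.86 to 5.68. The step therefore lay within the sequence. The weakest shared region of all was here, JACDRO010004310.1:26845-27138, with 1.47, 1.27 and 1.34 and 2724, 2717 and 1986 fragments at its summit. The gene models that overlap this stretch include added locus 7354, added locus 7355 and added locus 7356, which had 352, 413 and 42 reads, 39, 32 and 25 reads, and 3322, 2588 and 523 reads in RNA libraries 1, 2 and 3. Loci 7354 and 7355 overlap on opposite strands, and without a stated use of strand in the counting their reads cannot be told apart.

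Neighbouring shared regions lay close together on the unplaced sequences. The 6880 gaps between centres of neighbours had a median of 4863 bases (quartiles 1890 and 9390) on unplaced sequences, against 20182 bases (6594 and 62042) over 18233 gaps on placed sequences. Gaps of 2 kb or less were 26.5% of the unplaced and 11.4% of the placed ones, and gaps of 5 kb or less were 50.9% and 19.4%. An unplaced sequence can hold no gap longer than itself, which shortens these gaps.

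**Figure D3:**
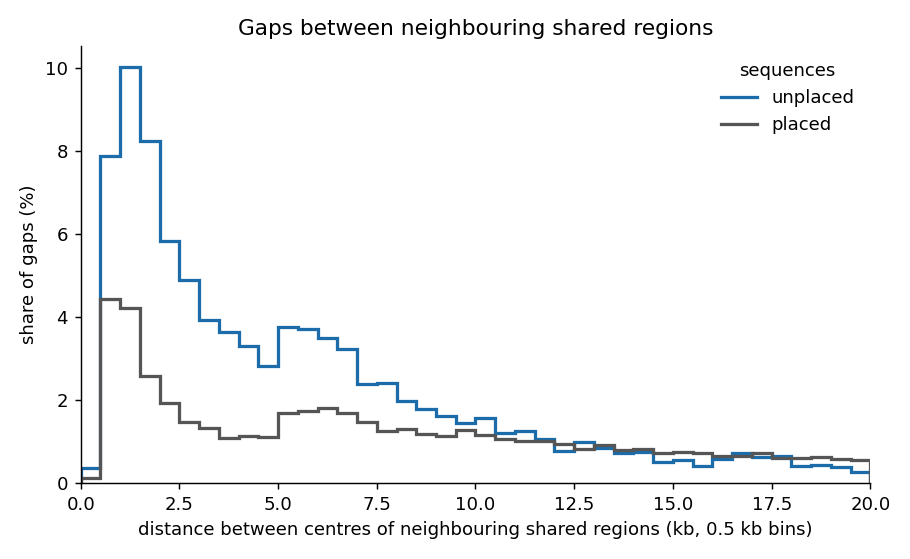
Share of gaps in percent (vertical) in bins of 0.5 kb of the distance in kb between the centres of neighbouring shared regions (horizontal), in blue for unplaced sequences and in grey for placed sequences, with gaps beyond 20 kb not drawn. Both curves have their main mode below 2 kb and a step upwards at 5 kb.

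The gaps did not fall off evenly with distance. On unplaced sequences 421 gaps were between 4 and 5 kb long and 515 between 5 and 6 kb, 1.22 times as many. On placed sequences the numbers were 409 and 625, 1.53 times as many. In the crabs' own peaks the ratio was 1.02, 1.13 and 1.09 on unplaced sequences and 1.40, 1.45 and 1.36 on placed sequences, so the step was smaller on the unplaced sequences in each crab. MACS2 takes as local background the larger of a genome-wide rate and the rate around the summit, by default 5 kb to either side, and a strong neighbour inside that window raises it.

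Fold enrichment was higher and background lower where the nearest shared neighbour was beyond 5 kb. The 2707 unplaced regions whose nearest shared neighbour was beyond 5 kb had a median fold enrichment of 5.06, 5.02 and 4.68 in crabs 1, 2 and 3, and the 5617 with a neighbour within 5 kb had 4.03, 4.09 and 3.96. The difference, beyond minus within, was 0.33, 0.29 and 0.24 on the log2 scale, with a mean of 0.29 ± 0.04 (SD, n = 3 crabs, exact two-sided sign-flip test, p = 0.25, the smallest that 3 crabs allow). The limit of 5 kb is also the default reach of the local background, so this test is not independent of how fold enrichment is formed. On placed sequences the medians were 4.45, 4.17 and 5.37 beyond 5 kb and 3.78, 3.65 and 4.43 within it, in the same order in each crab. The median background was 4.59 ± 0.731 fragments beyond 5 kb and 9.85 ± 1.38 within it, a log2 difference of -1.11 ± 0.05 with the same sign in 3 of 3 crabs. From 4 to 5 kb to 5 to 6 kb the median fold enrichment changed most, with 4.84 ± 0.170 at 5 to 6 kb against 4.14 ± 0.122 at 4 to 5 kb. The unplaced background had no single step there. Its median was 9.36 ± 1.36 fragments at 3 to 4 kb, 7.38 ± 1.17 at 4 to 5 kb and 5.91 ± 0.979 at 5 to 6 kb. Regions beyond 5 kb were also wider, with a median of 780 bases against 637 bases. The 744 regions that were alone on their sequence had 5.67, 5.54 and 4.69, and 67.0% ± 6.74 of them were at the lowest background of their library. The background around a summit thus moved with the distance to the neighbours, and its part in the fold enrichment was not tested.

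**Figure D4:**
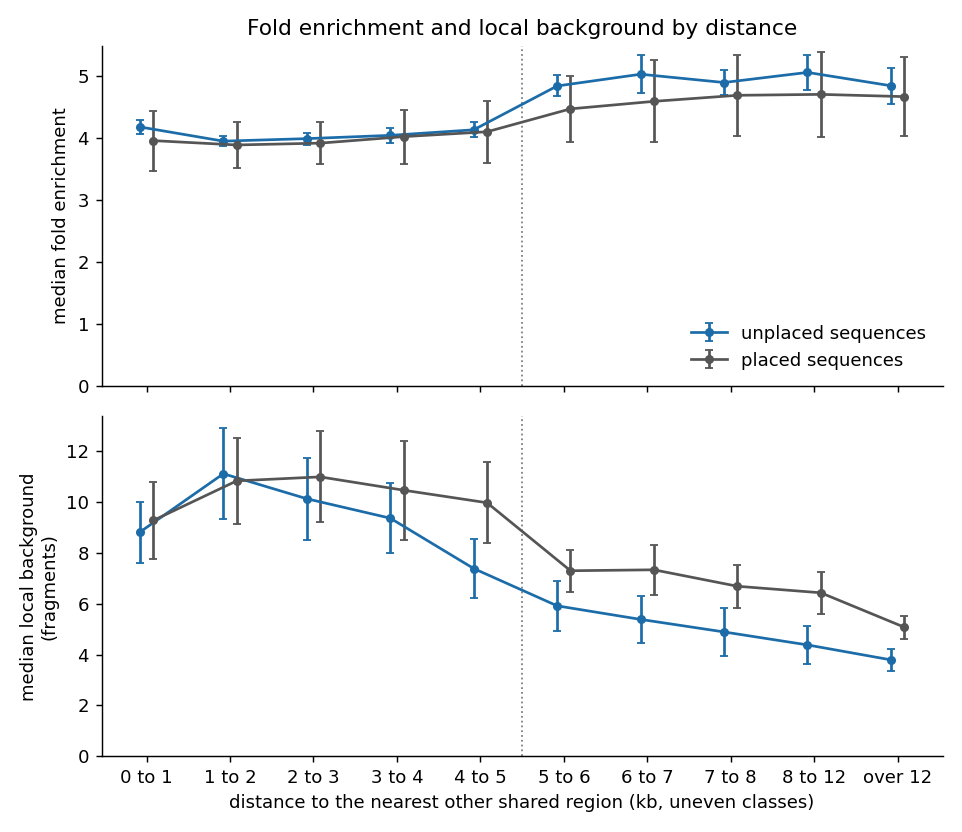
Median fold enrichment (top, linear) and median local background in fragments (bottom) of shared regions by the distance in kb to the nearest other shared region (horizontal, uneven classes), in blue for unplaced and in grey for placed sequences. Points are means of the 3 crabs, bars are SDs over the crabs and the dotted line marks 5 kb, where the fold enrichment is higher and the background lower to its right.

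Within each distance class the order of the crabs held. Beyond 5 kb the log2 difference of medians, unplaced minus placed, was 0.19, 0.27 and -0.20, and within 5 kb it was 0.09, 0.16 and -0.16, so that crab 3 had the opposite sign in both.

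Regular spacing was rare. Of 5436 pairs of neighbouring gaps on unplaced sequences, 293 (5.39%) differed by no more than 10% of the larger gap, against 798 of 18161 (4.39%) on placed sequences. In the crabs' own peaks the share was 5.48%, 5.26% and 5.41% on unplaced sequences and 4.72%, 4.49% and 4.50% on placed sequences. The difference, unplaced minus placed, was 0.765, 0.768 and 0.906 percentage points, with a mean of 0.813 ± 0.0805 (SD, n = 3 crabs, exact two-sided sign-flip test, p = 0.25, the smallest possible), higher in 3 of 3 crabs. Among shared regions the difference was 0.996 points, and it was 0.623 without crab 1. Sets of gaps with different spreads of length give different shares of equal pairs, and the part of this was not tested. The longest run of gaps that each matched the next held 4 gaps on unplaced and 4 on placed sequences.

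A sequence was called regularly spaced when it had at least 6 shared regions and at least 50% of its gaps lay within 10% of their median. This held for 11 of 461 sequences (2.39%), which had between 6 and 8 regions each and 76 together. The median share of gaps near the median was 18.8% over the 461. JACDRO010001273.1 had the most regions, 8, with a median gap of 1901 bases, but its gaps ran between 1742 and 9216 bases. JACDRO010001067.1 had 7 regions, and 66.7% of its gaps were near the median of 3747 bases, among them the run of 3659, 3454 and 3834 bases. JACDRO010001188.1 had the same share around 3254 bases, with gaps that measured 3148, 3404, 1481, 17704, 2948 and 3361 bases in order. JACDRO010000212.1 and JACDRO010000740.1, taken by name among 6 further sequences with 7 regions and 50.0% of gaps, had median gaps of 3414 and 5347 bases. On JACDRO010000106.1, with 6 regions, 3 gaps in a row measured 6530, 6920 and 6881 bases. The median gaps of the 11 ran between 1768 and 15356 bases, so they shared no common period. Of the 11, 6 had gene models and 5 had none, counts that were not compared with those of the 461.

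Few of the 11 were also regular in the peaks of a single library. By their own peaks 17 of 815 sequences were regular in crab 1, 9 of 799 in crab 2 and 7 of 685 in crab 3. Of these, 3, 0 and 2 were among the 11. With shared regions defined from only 2 of the crabs, 10 or 11 sequences were regular, of which 4 to 6 were among the 11. With at least 10 regions on a sequence, 0 of 183 were regular. Even spacing thus held for few sequences.

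Sequences with gene models held the smaller part of the shared regions. The 553 unplaced sequences with a gene model summed to 49.2 Mb and held 4102 shared regions (45.2%), and the 2322 without one summed to 53.2 Mb and held 4966 (54.8%). At least 1 shared region was found on 508 (91.9%) of the sequences with gene models and on 1680 (72.4%) of those without. The density was 0.833 per 10 kb on sequences with gene models and 0.934 per 10 kb on sequences without. In the crabs' own peaks it was 1.43, 1.39 and 1.27 per 10 kb with gene models and 1.62, 1.57 and 1.28 per 10 kb without. The difference, with minus without, was -0.126 ± 0.103 peaks per 10 kb (SD, n = 3 crabs, exact two-sided sign-flip test, p = 0.25, the smallest possible), lower in 3 of 3 crabs and close to 0 in crab 3. For shared regions the difference of -0.10 per 10 kb became -0.19 without crab 3 and -0.07 without crab 2.

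This order changed when sequences of like length were set side by side. Sequences with gene models had a median length of 44.1 kb and those without one of 13.5 kb. At 10 to 20 kb the density was 2.14 per 10 kb on 60 sequences with gene models and 1.19 on 510 without. At 20 to 50 kb it was 1.22 with and 0.973 without, at 50 to 100 kb 1.00 with and 0.775 without, and over 100 kb 0.657 with and 0.431 without. It was thus higher with gene models in the 5 classes from 5 kb upwards, and lower only under 5 kb, where 15 sequences had a gene model. A sequence without gene models is in the files only through a peak, and one with a gene model also without any peak.

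The regions on sequences with gene models were weaker. Their median fold enrichment was 4.12, 4.21 and 4.02 in crabs 1, 2 and 3 on sequences with gene models and 4.68, 4.71 and 4.40 on sequences without. The log2 difference, with minus without, was -0.18, -0.16 and -0.13, with a mean of -0.16 ± 0.03 (SD, n = 3 crabs, exact two-sided sign-flip test, p = 0.25, the smallest possible), and the crab values did not overlap. The median background was 8.95, 7.48 and 7.08 fragments with gene models and 7.56, 6.20 and 5.50 without, and sequence length differed as given above. Their part in the difference was not tested. A mean fold enrichment of at least 10 was reached by 211 regions (5.14%) with gene models and 361 (7.27%) without. Width and agreement were alike, with median widths of 691 and 679 bases and median SDs between crabs of 0.20 and 0.20 with and without gene models. The median gap was 5641 bases with gene models and 3951 without, and equal neighbouring gaps were 5.21% and 5.64% of the pairs.

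Few of the unplaced shared regions lay at genes. A promoter was taken as the start of a gene model with 2 kb on either side. On unplaced sequences 780 regions (8.60%) overlapped a promoter, 716 (7.90%) the rest of a gene model and 7572 (83.5%) neither. On placed sequences the shares were 30.2%, 25.04% and 44.8%. Gene models were sparser on the unplaced sequences, with 13.5 per Mb against 24.1 per Mb on placed sequences. On unplaced sequences with gene models alone, 19.0% of the shared regions were at promoters. Promoter regions were wider than the rest in both sets, with a median of 753 bases on unplaced and 751 on placed sequences. Their median fold enrichment was 4.09, 4.13 and 4.05 on unplaced sequences and 4.13, 3.83 and 5.27 on placed sequences, close together in the first set and spread by crab in the second. Outside promoters and gene models it was 4.52, 4.52 and 4.24 on unplaced sequences and 4.29, 4.14 and 4.90 on placed ones.

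The genes on unplaced sequences often had an open promoter but were seldom expressed. These sequences carried 1379 of the 28671 genes, of which 689 were EVM gene models, predicted by the EVidenceModeler program, and 690 were loci added by the authors. A shared region stood at the promoter of 634 (46.0%) of them, against 5789 of 27292 placed genes (21.2%) and 22.4% of all genes. Shared regions were also denser on unplaced sequences as a whole, with 0.886 per 10 kb against 0.162 on placed ones. A window of fixed size meets a region more often where regions are denser, and the part of this was not tested. Only 86 (6.24%) reached at least 1 FPKM (fragments scaled to the length of the gene and to the size of the library) in all 3 RNA libraries, against 34.0% of the placed genes and 32.7% of all genes. On placed sequences, 59.2% of genes with a shared region at the promoter and 27.2% of those without reached this level. On unplaced sequences it was 36 of 634 (5.68%) with a shared region and 50 of 745 (6.71%) without. No read was found in any library for 328 genes (51.7%) with a shared region and for 452 (60.7%) without.

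**Figure D5:**
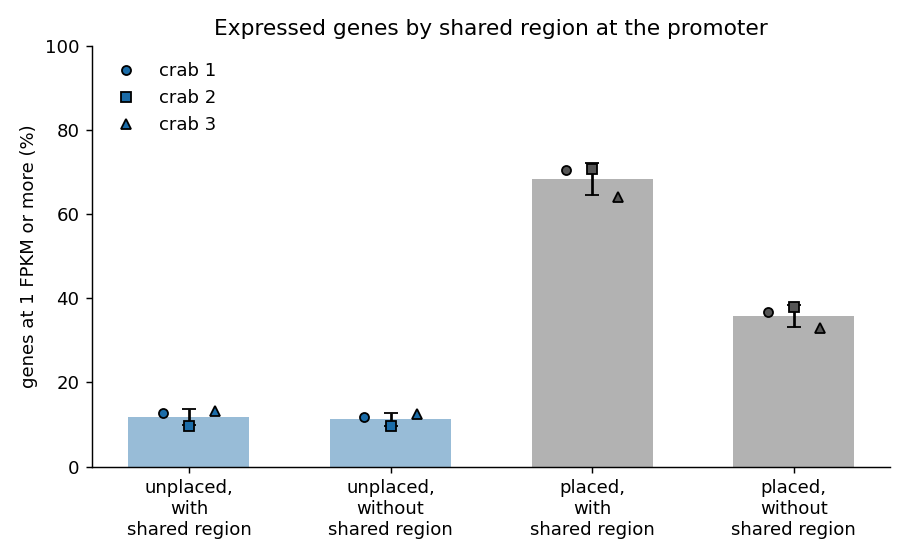
Share of genes at 1 FPKM or more in percent (vertical) on unplaced sequences (blue) and placed sequences (grey), each with and without a shared region at the promoter. Bars are means of the 3 crabs, error bars are SDs and symbols are the crabs. The unplaced bars, at 11.8% with and 11.3% without, lie below both placed bars.

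The median of unplaced genes was 0 FPKM with and without a shared region in each library, so these medians cannot show a difference and no test is given. On placed sequences the medians of log2(FPKM + 1) were apart by 1.79, 1.74 and 1.67, with minus without, a mean of 1.73 ± 0.06 (SD, n = 3 crabs, exact p = 0.25, the smallest possible). Per library, the share of unplaced genes at 1 FPKM or more was 12.6%, 9.62% and 13.1% with a shared region and 11.8%, 9.53% and 12.5% without, a difference of 0.502 ± 0.369 percentage points. With the total of reads assigned to genes as library size, chosen after seeing the data, the shares were 12.8%, 11.2% and 8.99% with a shared region and 12.2%, 11.7% and 8.05% without. Crab 2 then had the opposite sign, at -0.479 points, and the mean difference was 0.340 ± 0.734 points (SD, n = 3 crabs). On placed sequences the difference was 32.6 ± 1.41 points, and 31.8 ± 3.06 with that library size. Among genes with at least 1 read, the unplaced ones had a median over crabs of 0.367 FPKM with a shared region and 0.326 without, and the placed ones 4.39 and 1.35. Unplaced gene models were also shorter, with a median length of 594 bases for those with a shared region, against 1453 bases for placed ones. The unplaced genes together took 0.234%, 0.216% and 0.0818% of all reads assigned to genes. Reads that mapped to several places were left out of the counts, and how many of these belonged to unplaced genes was not tested.

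The most abundant unplaced gene with a shared region at its promoter was added locus 7356, at JACDRO010004310.1:41160-41690 on the minus strand, inside the stretch of high background described above. It had 890, 518 and 253 FPKM in RNA libraries 1, 2 and 3. The next was evm.TU.JACDRO010001641.1.1 with 352, 291 and 144 FPKM and a promoter region of 2.26, 2.74 and 1.91. On JACDRO010001634.1, added locus 7136 had 266, 177 and 61.6 FPKM and added locus 7137 had 130, 89.3 and 31.1 FPKM. Between them came evm.TU.JACDRO010000460.1.6 with 204, 168 and 61.2 FPKM. Library 3 was the lowest for all 5 genes. The authors' FPKM are scaled to a library size that was 1.04, 1.27 and 0.491 times the reads assigned to genes, which raises library 3. In reads, added locus 7356 had 3322, 2588 and 523, evm.TU.JACDRO010001641.1.1 had 1236, 1367 and 279, and added locus 7136 had 1398, 1244 and 179, out of 6772294, 7391379 and 7920094 in all. None of the 5 promoter regions was among the strong ones, and their highest was 6.67, 6.76 and 7.21 at added locus 7137.

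The study listed 6 genes on unplaced sequences among those whose expression differed between molting stages together with the accessibility of a peak assigned to them, which could also lie away from the promoter, 3 of them from a comparison that included inter-molt muscle, so the list is not independent of these samples. Of the 6, 1 had a shared region at its promoter, evm.TU.JACDRO010000460.1.5, at JACDRO010000460.1:94022-95325. It had 2 such regions, and the stronger, at 93044-93754, had a fold enrichment of 3.68, 3.13 and 3.18. Its expression was low, with 3, 14 and 2 reads. Of the other 5, evm.TU.JACDRO010000460.1.3 had 15.1, 9.08 and 7.26 FPKM and evm.TU.JACDRO010000891.1.1 had 9.23, 9.37 and 13.4 FPKM without a shared region at the promoter or in the gene. The remaining 3, evm.TU.JACDRO010000460.1.9, evm.TU.JACDRO010000894.1.5 and evm.TU.JACDRO010003234.1.3, were between 1.57 and 10.5 FPKM. The shared regions thus covered the promoter of 1 listed gene, beside 46.0% of all unplaced genes.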

How the data were processed

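Inter-molt muscle of 3 crabs was measured by ATAC-seq and RNA-seq. The authors used skewer for trimming of ATAC reads and BWA for alignment, filtered on mapping quality, pairing and mitochondrial origin, and ran MACS2 on each library with duplicates kept and several summits allowed per peak. The filter on mapping quality removes many reads of repeated sequence. A shift of reads for the transposase is not stated, and read totals of these libraries were not used. The ratio of summit pileup to local background (fold enrichment), −log10 p, −log10 q (at least 1.30) and the score are the authors' deposited values. The authors aligned RNA reads with HISAT2 (version 2.0.5 in the submitters' notes) and counted them with featureCounts (1.5.0-p3), leaving out reads with several places. The authors deposited FPKM, and reads were recovered as whole multiples of the smallest step.

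Merged regions take a crab's highest summit. Pileup and background were solved from fold enrichment and p at 100% of the summits. A background within 2% of a library's lowest counted as lowest. Positions count from 1. Gaps join centres of regions. The functions were tested on simulated data. Named were the 10 sequences with most shared regions, 5 regularly spaced sequences, the 5 strongest and 5 most variable regions, the 5 most abundant genes and the 6 listed ones; ties were broken by name. Members, lists and rules were chosen with earlier results of these data known. Medians were compared within each crab and tested over the 3 crabs by an exact two-sided sign-flip test. Alternatives covered merging, the q threshold, summits, tolerance, promoter width, pseudocount and leaving out each crab. Python 3.11.15, numpy 2.4.6, scipy 1.17.1, pandas 2.3.3 and matplotlib 3.10.9 were used.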

Additional observations from a re-analysis of the deposited data

How the results depend on the processing

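No paired analysis was possible because replicate numbers are shared only by ATAC and RNA libraries, which hold different quantities. Kinds of sequence or gene were compared within each crab. Of 58 alternatives, 40 kept the direction and stayed within 1.5 times of a count or 1 SD over crabs of a value without a test, a limit that the width and density differences met although they moved by more than 1.5 times. The 40 include the alternatives for the expression of unplaced genes, whose main difference of medians was 0 and had no direction to keep. With another pseudocount or library size it had to stay 0. The number of shared regions on unplaced sequences, 9068, stayed within 1.5 times (6210 with a −log10 q of at least 5, 8079 with summits within 150 bases, 10194 to 11269 without 1 crab). The log2 fold enrichment difference, near 0, changed sign with −log10 q of at least 5 (-0.0094) and outside promoters and gene models only (-0.0020), and ran from -0.019 to 0.076 without 1 crab. The difference in spread between crabs, -0.08, became -0.017 after scaling of the libraries and ran from -0.106 to -0.010 without 1 crab. The difference in equal neighbouring gaps was 0.612 points at a tolerance of 5%, 1.57 at 20%, 0.865 with mean summit positions, 1.86 with −log10 q of at least 5 and 0.623 to 1.05 without 1 crab. Regularly spaced sequences numbered 3 at a tolerance of 5%, 44 at 20%, 63 with at least 4 regions and 0 with at least 10. With 2 settings chosen after seeing the data the count was 10 with mean summit positions and 8 with −log10 q of at least 5, of which 7 and 2 were among the 11. The width difference, 27 bases, was 44.7 with mean peak widths and 25 to 59 without 1 crab. The density difference between sequences with and without gene models, -0.10, was -0.193 with EVM models only, ran from -0.193 to -0.067 without 1 crab and became 0.152 on sequences of 5 to 100 kb and -0.066 on those of 5 kb or more, both chosen after seeing the data. The share of regions at promoters was 6.03% with 1 kb, 11.1% with 3 kb and 8.14% to 8.67% without 1 crab. Other causes were not tested. With 3 crabs no test could pass 0.05, backgrounds of few fragments limit the precision of fold enrichment, and sequence lengths are lower bounds.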
